A study of Mus musculus with 24 samples.

Results

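Gene expression at circadian time 12 (CT12) was compared with that at CT09 in mouse liver, across the last 3 h before subjective dusk. The 6 arrays are those titled CT12 (3 arrays) and CT09 (3 arrays), out of 24 arrays from 8 times. Both groups consisted of livers of adult male C57BL/6 mice, each hybridized separately to an Affymetrix Mouse Gene 1.0 ST array. All mice had been entrained to alternating light and dim red light, were then moved into continuous dim red light, and were sampled in the second cycle there, with food always available. The labels count 4 mice per time at harvest and 3 processed samples, and state no age. Values are log2 values relative to the median of each probe set over the 24 arrays, with base 2 assumed. The difference between times is therefore known, but the level of a gene is not, beyond a brightness class read from rounding steps. In all, 19935 genes with 1 symbol were tested.

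By convention CT12 is the time at which lights would have gone off, when nocturnal mice become active and begin to feed. The hepatic clock is a feedback loop in which the BMAL1 and CLOCK activators drive the genes of their own repressors, the PER and CRY proteins, through E-box elements. A coupled loop runs through the REV-ERB repressors (Nr1d1 and Nr1d2) and ROR activators, which act on ROR elements in the genes of BMAL1 and its partners. PAR bZIP factors such as DBP carry the rhythm on to metabolic genes through D-box elements. In the liver these outputs, together with feeding and systemic hormones such as glucocorticoids, time NAD synthesis, sterol synthesis, and the storage and use of glucose and fat.

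The 3 CT12 arrays resembled each other, with correlations over all genes of 0.49 to 0.52. Among the CT09 arrays, replicates 1 and 2 correlated at 0.60, but replicate 3 correlated at only 0.20 and 0.17 with them, and at 0.33, 0.41 and 0.49 with the CT12 arrays. These values describe genes measured on single arrays and carry no test. CT09 replicate 3 also stood apart in the markers of Kupffer cells and other macrophages, the phagocytes of the liver. The median of the 9 tested markers was 0.07, -0.26 and 0.04 on the CT12 arrays, against 0.16 and 0.28 on CT09 replicates 1 and 2 and -0.63 on CT09 replicate 3. All 9 were lowest on that array among the 6, for example Lyz2, the macrophage lysozyme gene, at -0.78 and Adgre1, which encodes F4/80, at -0.73. In whole liver, fewer cells of a type and less RNA per cell cannot be told apart, and the part of these markers in the results was not tested. The counts of called genes, and the list members that passed, are also given without this array. Because it was singled out after its likeness to the CT12 arrays was seen, calls gained without it are not independent of that choice.

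**Figure D1:**
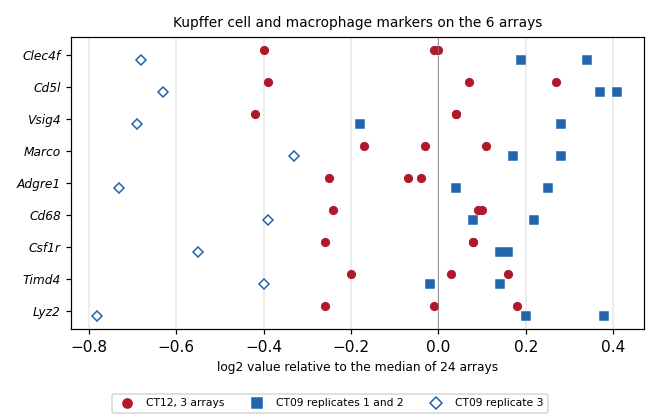
The 9 tested Kupffer cell and macrophage markers (rows) on the 6 arrays, as log2 values relative to the median of 24 arrays. Each point is 1 array. CT09 replicate 3 (open diamonds) lies lowest in every row, at -0.33 to -0.78.

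Few of the genes passed the test over these 3 h. The largest changes among them were the rises of Pfkfb3, Ppp1r10, Nampt and Fkbp5 and the fall of Pim1. By limma's moderated test with Benjamini-Hochberg adjustment over all 19935 genes, 12 genes were higher at CT12 than at CT09 (0.0602% of those tested) and 9 were lower (0.0451%), at an adjusted p under 0.05. The changes of these 21 genes ranged from 1.22-fold to 1.97-fold in size. In all 21 the CT12 and CT09 arrays did not overlap, which held in the higher direction for 7.39% of all genes and in the lower for 11.7%. The 21 were chosen by a test on these same values, so the lack of overlap is no separate evidence. At an unadjusted p under 0.05, 1382 genes were higher (6.93%) and 1657 lower (8.31%). Without CT09 replicate 3, 121 genes were higher (0.607%) and 69 lower (0.346%), and these included all 21. The calls also needed the other arrays, since 0 genes passed in limma without CT09 replicate 1, CT09 replicate 2 or CT12 replicate 1. Without CT12 replicate 2 there were 3 higher and 0 lower, and without CT12 replicate 3 there were 4 higher and 2 lower. After quantile normalization 4 of the 21 still passed (Arsg, Pim1, Senp2 and Shld2), and 0 of the 21 did when the 6 arrays were fitted alone.

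**Figure D2:**
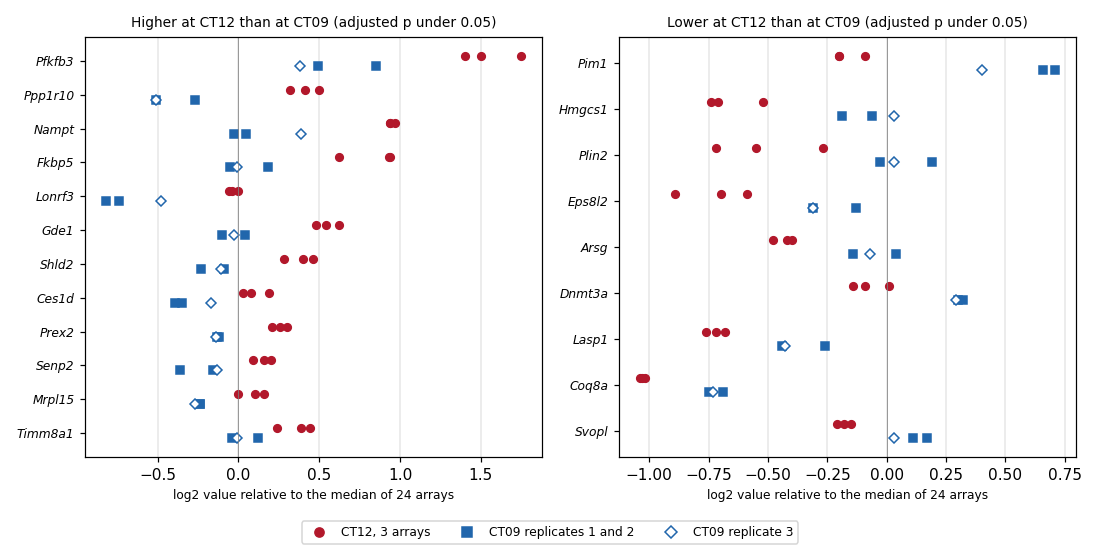
Log2 values, relative to the median of 24 arrays, of the 12 genes higher and the 9 genes lower at CT12 than at CT09 (rows, ordered by the size of the difference). Each point is 1 array, with CT12 circles above the CT09 squares and diamonds. In each row the groups do not overlap.

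Nampt, the rate-limiting enzyme of NAD salvage from nicotinamide, had the smallest p. It stood at 0.97, 0.94 and 0.94 on the CT12 arrays, against 0.05, -0.03 and 0.39 on the CT09 arrays. The CT12 arrays were nearly equal and CT09 replicate 3 was the closest of the CT09 arrays to them. The difference was 0.81 ± 0.11 (SE, log2), or 1.76-fold, with an adjusted p of 0.00909. Over the cycle its means ran from -0.58 at CT03 to 0.95 at CT12, the highest of the 8 times. Among the other NAD genes none passed, and 3 of 19 members of that list besides Nampt had an unadjusted p under 0.05 in the same direction and 1 in the other. The next was Nmrk1, the nicotinamide riboside kinase gene, which differed by 0.61 ± 0.15 (adjusted p = 0.107). It stood at 0.79, 0.67 and 0.62 at CT12, against 0.14, -0.05 and 0.18 at CT09.

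Pfkfb3 showed the largest rise among the genes that passed. Its product makes fructose 2,6-bisphosphate, the allosteric activator of glycolysis. The CT12 arrays read 1.75, 1.5 and 1.40, against 0.85, 0.49 and 0.38 on the CT09 arrays. That is a difference of 0.98 ± 0.19 (SE), or 1.97-fold (adjusted p = 0.041), and all CT12 values lay far above all CT09 values. Fkbp5 encodes FKBP51, a co-chaperone of HSP90 whose gene is a target of the glucocorticoid receptor. It read 0.94, 0.93 and 0.62 at CT12, against 0.18, -0.05 and -0.01 at CT09, and rose 1.73-fold (0.79 ± 0.15, adjusted p = 0.0366). Its mean went on to a maximum of 1.08 at CT15. Ppp1r10, which encodes the nuclear phosphatase regulator PNUTS, read 0.50, 0.41 and 0.32 at CT12, against -0.27, -0.51 and -0.51 at CT09. It rose 1.79-fold (0.84 ± 0.15, adjusted p = 0.03), and its mean stayed between 0.34 and 0.52 from CT12 to CT21.

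The remaining 8 genes that rose did so by 1.26-fold to 1.56-fold. Lonrf3, a RING finger protein gene with a LON domain, averaged -0.04 ± 0.03 at CT12 and -0.68 ± 0.18 at CT09 (SD, n = 3 each), with an adjusted p of 0.03 by limma. Gde1, a glycerophosphodiester phosphodiesterase gene, read 0.62, 0.48 and 0.54 at CT12, against 0.04, -0.10 and -0.03 at CT09 (1.49-fold). Ces1d, a liver carboxylesterase that hydrolyses triglycerides, read 0.08, 0.19 and 0.03 at CT12, against -0.39, -0.35 and -0.17 at CT09 (1.32-fold). For this gene CT09 replicate 3 lay closest to CT12 of the CT09 arrays, as it did in 8 of the 21 genes that passed. Shld2, a subunit of the shieldin complex of DNA repair, rose 1.44-fold, and Senp2, a protease that removes SUMO, 1.29-fold. Prex2, a RAC exchange factor gene, rose 1.30-fold with values of 0.21 to 0.30 at CT12 and -0.14 to -0.12 at CT09. Both Mrpl15 (mitochondrial ribosome) and Timm8a1 (mitochondrial protein import) rose 1.26-fold. Of all 12 genes, 7 had their highest mean of the cycle at CT12, 4 at CT15 and 1 at CT18. They were chosen for a CT12 mean above that of CT09, which favours a high point at CT12.

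Just outside the threshold on this side lay Tcim, a transcription and immune regulator gene. It read 0.67, 0.86 and 0.66 at CT12, against -0.39, -0.51 and -0.05 at CT09, a difference of 1.05 ± 0.21 (adjusted p = 0.052, and 0.0246 without CT09 replicate 3). Zc3h8, a zinc finger protein gene, and Fmo2, a flavin-containing monooxygenase gene, followed with differences of 0.43 and 0.76 (adjusted p = 0.0563 for each).

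Among the 9 genes that fell, Pim1, a serine/threonine kinase gene, moved most. It read -0.20, -0.09 and -0.20 at CT12, against 0.66, 0.71 and 0.40 at CT09, a change of -0.75 ± 0.13 (1.68-fold lower, adjusted p = 0.03). Its mean had been 0.76 at CT06 and stayed between -0.19 and -0.14 from CT12 to CT21. Hmgcs1 encodes the cytosolic enzyme that makes HMG-CoA for cholesterol synthesis. It read -0.52, -0.71 and -0.74 at CT12, against -0.19, -0.06 and 0.03 at CT09 (-0.58 ± 0.11, adjusted p = 0.0344), and CT12 was the lowest point of its cycle. Plin2, the gene of a protein that coats lipid droplets, read -0.72, -0.55 and -0.27 at CT12, against -0.03, 0.19 and 0.03 at CT09. The change was -0.58 ± 0.11 (1.49-fold lower, adjusted p = 0.046), and its mean was also lowest at CT12. With each array centred on its own median, Plin2, Hmgcs1 and Lasp1 no longer passed.

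Dnmt3a, a de novo DNA methyltransferase gene, read 0.01, -0.14 and -0.09 at CT12, against 0.32, 0.30 and 0.29 at CT09 (1.30-fold lower, adjusted p = 0.0344). The CT09 arrays were almost identical here. Coq8a, needed for coenzyme Q synthesis, was as tight, with -1.03, -1.02 and -1.04 at CT12, against -0.75, -0.69 and -0.73 at CT09 (1.23-fold lower, adjusted p = 0.0344). Both groups of this gene lay near the bottom of a cycle whose highest mean was 0.41 at CT03. Eps8l2, an EPS8-related gene of the actin cytoskeleton, fell 1.39-fold, and Lasp1, which encodes an actin-binding LIM and SH3 protein, 1.27-fold. Arsg, a lysosomal sulfatase gene, fell 1.30-fold, and Svopl, a gene of a putative transporter, 1.22-fold. Of the 9 genes, 6 had their lowest mean of the cycle at CT12, 1 at CT15 and 2 at CT18. Here too the choice of genes, with CT12 below CT09, favours a low point at CT12.

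The next genes on this side did not pass. Tmem182 differed by -0.37 (adjusted p = 0.0714), Tnfaip8l1 by -0.33 (0.0791), Eepd1 by -0.42 (0.0808) and the sialidase gene Neu4 by -0.25 (0.0815). Elovl3, an elongase of very long chain fatty acids, read -1.75, -1.72 and -1.82 at CT12, against -0.67, -0.84 and -1.43 at CT09. CT09 replicate 3 lay between the other CT09 arrays and the CT12 arrays, and the adjusted p was 0.0813 with it and 0.0126 without it. The neutrophil chemokine gene Cxcl1 read -0.13, -0.15 and -0.01 at CT12, against 0.51, 1.18 and 0.15 at CT09 (adjusted p = 0.0815 with CT09 replicate 3 and 0.00517 without it). Here the spread was in the CT09 livers (SD 0.52, n = 3), while those of CT12 agreed closely (SD 0.08).

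The promoters of 4 genes are printed because the clock acts through short elements near gene starts and these genes moved in opposite directions over the same 3 h. Of the 21 genes, 18 had at least 1 promoter in RefSeq (GRCm38.p6), taken as 250 bases before to 50 after the gene start. Those of Pfkfb3 and Fkbp5, which rose, and of Pim1 and Plin2, which fell, were the ones with the largest differences that hold a searched motif. Capitals mark an E-box (CACGTG) or, in Plin2, also the core of a ROR element (TAGGTCA, here on the other strand).
Pfkfb3, chr2:11502041-11502340, minus strand: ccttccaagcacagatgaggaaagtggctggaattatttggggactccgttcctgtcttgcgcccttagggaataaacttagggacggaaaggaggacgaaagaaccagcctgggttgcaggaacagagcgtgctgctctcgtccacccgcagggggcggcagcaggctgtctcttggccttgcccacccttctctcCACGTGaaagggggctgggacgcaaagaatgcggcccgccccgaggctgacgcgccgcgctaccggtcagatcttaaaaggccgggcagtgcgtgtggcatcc
Fkbp5, chr17:28486100-28486399, minus strand: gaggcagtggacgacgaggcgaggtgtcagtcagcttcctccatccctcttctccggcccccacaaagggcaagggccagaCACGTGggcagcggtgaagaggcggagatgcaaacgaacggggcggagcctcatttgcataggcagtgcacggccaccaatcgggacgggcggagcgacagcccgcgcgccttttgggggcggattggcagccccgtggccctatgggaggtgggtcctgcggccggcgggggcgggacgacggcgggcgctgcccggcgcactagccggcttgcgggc
Pim1, chr17:29492835-29493134, plus strand: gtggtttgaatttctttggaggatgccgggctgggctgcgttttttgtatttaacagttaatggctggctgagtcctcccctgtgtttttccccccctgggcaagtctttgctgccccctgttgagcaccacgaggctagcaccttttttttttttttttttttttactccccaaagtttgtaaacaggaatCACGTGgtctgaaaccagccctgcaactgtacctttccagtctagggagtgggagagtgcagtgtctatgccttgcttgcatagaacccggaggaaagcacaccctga
Plin2, chr4:86670010-86670309, minus strand: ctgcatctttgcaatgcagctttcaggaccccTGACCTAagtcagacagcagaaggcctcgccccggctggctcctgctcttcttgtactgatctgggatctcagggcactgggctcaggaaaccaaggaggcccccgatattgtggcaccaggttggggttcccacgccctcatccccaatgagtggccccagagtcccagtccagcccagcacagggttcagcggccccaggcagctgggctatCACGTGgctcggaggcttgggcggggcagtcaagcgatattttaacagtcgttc
The E-box began 53 bases before the gene start in Pfkfb3, 169 before it in Fkbp5, 58 before it in Pim1 and 4 before it in Plin2. Searched on both strands, CACGTG was in 4 of 11 promoters of the genes that rose (Fkbp5, Lonrf3, Pfkfb3 and Timm8a1) and in 4 of 14 of those that fell (Dnmt3a, Lasp1, Pim1 and Plin2). It was in 7.15% of all 32851 promoters of this length, and in 8.25% of those of tested genes. The 11 and the 14 promoters belong to 9 genes each, since a gene can have more than 1 start. The D-box TTATGTAA was in 1 promoter of a gene that rose (Gde1) and in 0 of 14 of those that fell, beside 0.938% of all promoters. The ROR element core was in 1 promoter of a gene that fell (Plin2) and in 0 of 11 of those that rose, beside 2.61% of all. In Plin2 the motifs do not overlap. A match describes the letters alone.

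By limma 0 of the 17 tested clock genes passed, while 3 were higher and 2 lower at an unadjusted p under 0.05. The largest difference was that of Nr1d1, which encodes REV-ERB alpha. It read 0.22, 0.00 and 0.36 at CT12, against 1.39, 1.36 and 1.49 at CT09, which is 2.33-fold lower (-1.22 ± 0.29, SE). The arrays of each time lay close together and far apart from those of the other time, but the adjusted p was 0.0926, with a standard error that comes from all 8 times. Its paralog Nr1d2 had means of 0.79 ± 0.24 at CT12 and 0.78 ± 0.21 at CT09 (SD, n = 3 each). Bhlhe41, the gene of the repressor DEC2, read 0.90, 0.27 and 0.45 at CT12, against 1.05, 0.95 and 1.20 at CT09 (-0.53 ± 0.14, adjusted p = 0.126).

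The genes of the PER and CRY repressors leaned the other way. Cry1 read -0.43, -0.08 and -0.55 at CT12, against -0.82, -0.87 and -0.87 at CT09 (0.50 ± 0.12, adjusted p = 0.108). The groups did not overlap, and CT09 was the lowest mean of its cycle (-0.85). Per2 read 0.33, 0.47 and 0.13 at CT12, against -0.11, -0.01 and 0.10 at CT09 (0.32 ± 0.13, adjusted p = 0.262). In Per1 the groups overlapped by a small margin, with 1.17, 0.78 and 1.08 at CT12, against 0.80, 0.62 and 0.74 at CT09 (0.29 ± 0.13, adjusted p = 0.32). Ciart, the gene of a circadian repressor, differed by 0.18 ± 0.23, Cry2 by 0.02 ± 0.09 and Per3 by -0.04 ± 0.15. The median of the 6 repressor genes was 0.23, beside -0.02 over all genes, and 0.06 after quantile normalization.

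The output factors and the activators differed less. Dbp averaged 1.35 ± 0.25 at CT12 and 1.58 ± 0.13 at CT09 (SD, n = 3 each), with an adjusted p of 0.706 by limma. Tef, another PAR bZIP gene, averaged 0.58 ± 0.11 at both times, and Hlf 0.17 ± 0.10 at CT12 and 0.12 ± 0.16 at CT09. Nfil3, which encodes a repressor at D-boxes, differed by 0.10 ± 0.16 (SE) and Bhlhe40, which encodes DEC1, by 0.06 ± 0.20. Arntl, the gene of BMAL1, read -1.60, -0.97 and -1.69 at CT12, against -1.52, -1.78 and -1.59 at CT09 (0.21 ± 0.13, adjusted p = 0.428). Clock averaged -0.59 at both times, and Rora differed by 0.03 ± 0.10. These p-values do not show that the genes were equal at both times.

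**Figure D3:**
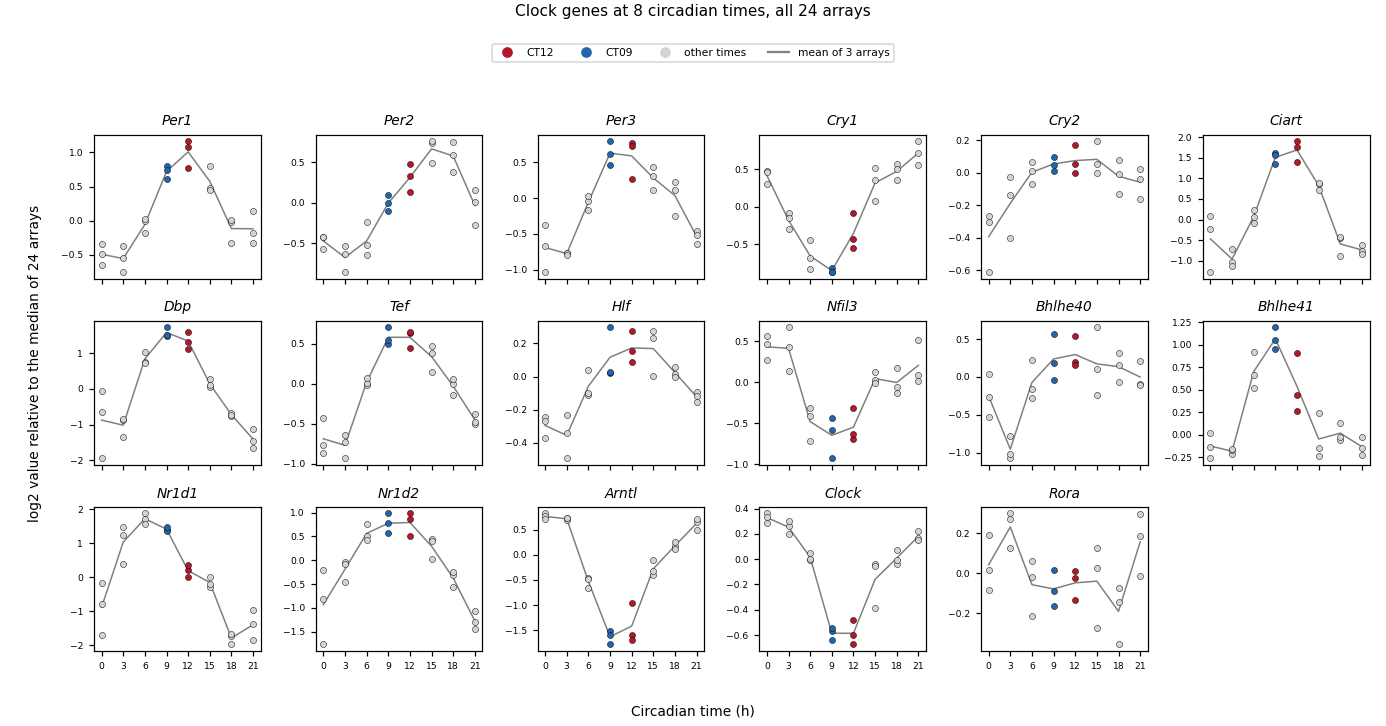
Log2 values, relative to the median of 24 arrays, of the 17 tested clock genes against circadian time (h). Points are arrays, with CT12 and CT09 coloured, and lines join the means of 3 arrays. Nr1d1 is lower in every CT12 array than in every CT09 array, and Cry1 higher, while Dbp, Tef, Nr1d2 and Clock overlap.

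The wider biology was described with 31 gene lists, of which 509 of 554 distinct members were tested. Of these, 3 were called higher (Nampt, Pfkfb3 and Fkbp5) and 1 lower (Hmgcs1). Without CT09 replicate 3, 11 were higher and 6 lower. Those added were Npm1, Ppp1r3b, Chordc1, Cyp7a1, Gsta3, Abcb1a, Pik3r1 and Acot3 on the higher side, and Elovl3, Mt2, Sqstm1, Hsd3b7 and Trib3 on the lower. Their adjusted p without that array ran from 0.0126 (Elovl3) to 0.0387 (Trib3). That array was singled out for its likeness to the CT12 arrays, so these added calls are not independent of that choice. Counts of members at an unadjusted p under 0.05 are read beside the 6.93% of all genes that were higher and the 8.31% that were lower at that level. Besides the member with the smallest p in each list, genes named from here on were picked after their values were seen.

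**Figure D4:**
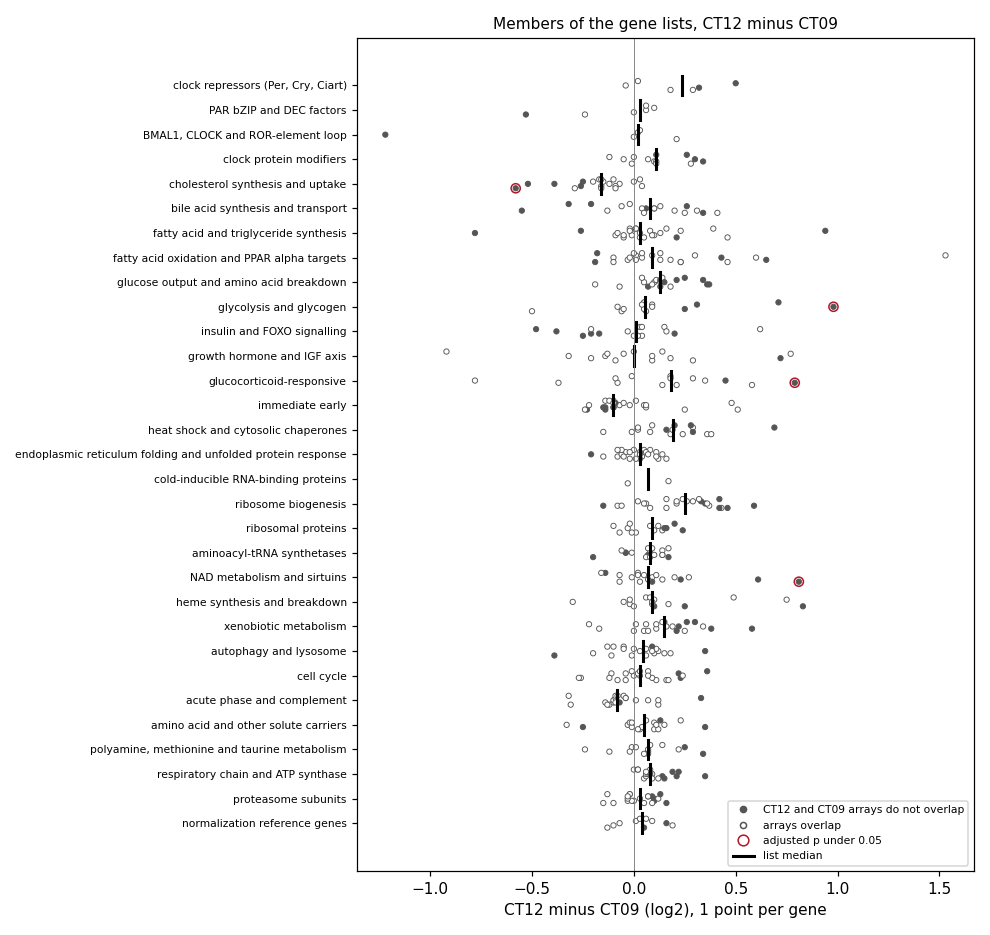
CT12 minus CT09 (log2) of each tested member of the 31 gene lists (rows), 1 point per gene, with bars at list medians. Filled points are genes whose CT12 and CT09 arrays do not overlap, and red rings mark the 4 genes that passed. Bars for ribosome biogenesis (0.25) and clock repressors (0.23) lie farthest to the right and that for cholesterol synthesis (-0.16) farthest to the left.

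Genes of sterol synthesis lay lower at CT12. Of 20 tested members Hmgcs1 fell, 0 rose, and 6 were lower and 0 higher at an unadjusted p under 0.05, with a median difference of -0.16. Insig2, which holds the SREBP complex in the endoplasmic reticulum, read -1.32, -1.04 and -0.99 at CT12, against -0.70, -0.57 and -0.50 at CT09 (adjusted p = 0.12). Squalene epoxidase (Sqle) read -0.47, -0.39 and -0.78 at CT12, against -0.16, -0.22 and -0.08 at CT09, and squalene synthase (Fdft1) differed by -0.26 ± 0.09. In each of these the times did not overlap. Without CT09 replicate 3 the list median was -0.09.

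Bile acid genes went both ways. By limma 0 of 18 passed, with 2 higher and 3 lower at an unadjusted p under 0.05 and a median of 0.08. Hsd3b7, an early enzyme of bile acid synthesis, read -0.50, -0.40 and -0.38 at CT12, against 0.05, -0.16 and -0.22 at CT09 (adjusted p = 0.0926). Cyp8b1, which directs synthesis to cholic acid, read -0.87, -0.50 and -0.52 at CT12, against -0.11, -0.03 and -0.10 at CT09 (adjusted p = 0.149). Both were lower in every CT12 liver. Cyp7a1, the rate-limiting enzyme, read 0.55, 0.84 and 0.60 at CT12, against -0.06, -0.05 and 0.88 at CT09. The CT09 replicate 3 value exceeded all CT12 values, so the difference was 0.41 ± 0.19 with that array and 0.72 without it, where the gene passed.

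In fat metabolism the differences were large for a few genes and small for most. Of 25 genes of fatty acid and triglyceride synthesis 0 passed in limma, with 4 higher and 2 lower at an unadjusted p under 0.05 (median 0.03). Lpin1, which makes diacylglycerol for triglyceride synthesis, read 2.04, 1.67 and 1.38 at CT12, against 0.73, 0.67 and 0.86 at CT09. This was 0.94 ± 0.24 (SE, adjusted p = 0.12), with no overlap. Dgat1, the gene of an acyltransferase of the final step, differed by 0.21 ± 0.07. Of 23 fatty acid oxidation and PPAR alpha target genes 0 passed, with 6 higher and 0 lower at an unadjusted p under 0.05 (median 0.09). The acyl-CoA thioesterase gene Acot3 read 0.53, 0.99 and 1.04 at CT12, against 0.40, -0.11 and 0.33 at CT09 (adjusted p = 0.0815). Cyp4a14, a fatty acid hydroxylase gene, had the widest spread of the list. It read 0.20, 0.38 and 1.87 at CT12, against -0.08, -2.25 and 0.20 at CT09 (1.53 ± 0.52, adjusted p = 0.213), so 1 array at each time set most of its difference.

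Of 14 glycolysis and glycogen genes Pfkfb3 rose, 0 fell, and 4 were higher at an unadjusted p under 0.05 (median 0.05). Ppp1r3b, which targets protein phosphatase 1 to glycogen, read -0.37, 0.29 and -0.42 at CT12, against -1.01, -1.11 and -0.51 at CT09 (0.71 ± 0.16, adjusted p = 0.0815). Without CT09 replicate 3 it passed. The liver glycogen synthase gene Gys2 differed by 0.25 ± 0.10, and Ugp2, which makes UDP-glucose, by 0.31 ± 0.13. The related targeting subunit gene Ppp1r3c went the other way, by -0.50 ± 0.25. In glucose output and amino acid breakdown 0 of 19 passed, with 5 higher and 1 lower at an unadjusted p under 0.05 (median 0.13). In 9 of the 19 every CT12 array lay above every CT09 array, against 7.39% of all genes. Among them were Asl of the urea cycle (0.25 ± 0.07, adjusted p = 0.143), the glucose-6-phosphatase gene G6pc (0.37 ± 0.15) and its transporter partner Slc37a4 (0.34 ± 0.13).

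Insulin signalling genes went both ways. By limma 0 of 16 passed, with 2 higher and 5 lower at an unadjusted p under 0.05 (median 0.01). Trib3, a pseudokinase gene that restrains AKT, read -0.04, -0.12 and 0.07 at CT12, against 0.53, 0.49 and 0.33 at CT09 (-0.48 ± 0.11, adjusted p = 0.082). The insulin receptor substrate genes Irs2 (-0.38 ± 0.14) and Irs1 (-0.21 ± 0.07) were lower in every CT12 array. For Irs2 the values were -0.15, -0.29 and -0.05 at CT12, against 0.26, 0.13 and 0.26 at CT09. Pik3r1, the regulatory subunit of PI3 kinase, read 0.56, 0.59 and 0.14 at CT12, against -0.28, -0.43 and 0.15 at CT09. Its groups met at CT09 replicate 3, and it passed without that array. In the growth hormone axis 0 of 15 passed (1 higher and 2 lower at an unadjusted p under 0.05). Socs2, a feedback inhibitor of that axis, read 0.84, 0.28 and -0.16 at CT12, against -0.34, -0.41 and -0.47 at CT09 (adjusted p = 0.178).

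Glucocorticoid-responsive genes had a median of 0.18 over 14 members. Fkbp5 rose, 0 fell, and 4 were higher and 1 lower at an unadjusted p under 0.05. Tsc22d3, which encodes the glucocorticoid-induced leucine zipper, read 0.08, 0.30 and 0.23 at CT12, against 0.02, -0.35 and -0.40 at CT09 (0.45 ± 0.11, adjusted p = 0.121). The metallothionein gene Mt2 read 1.09, -0.20 and 0.80 at CT12, against 1.95, 1.75 and 0.34 at CT09. The difference was -0.78 ± 0.31 (SE, adjusted p = 0.259) with all arrays. It was -1.28 ± 0.24 without CT09 replicate 3 and then passed (adjusted p = 0.0218). Immediate early genes, by contrast, had a median of -0.10 over 23 members. By limma 0 passed, with 1 higher and 3 lower at an unadjusted p under 0.05, and Fos had the smallest p (-0.23 ± 0.10, adjusted p = 0.282).

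Of 24 ribosome biogenesis genes 0 passed in limma, but 14 were higher and 0 lower at an unadjusted p under 0.05, beside 6.93% of all genes. Their median was 0.25, or 0.32 without CT09 replicate 3 and 0.22 after quantile normalization. Npm1, nucleophosmin, read 0.37, 0.34 and 0.23 at CT12, against -0.31, -0.28 and 0.24 at CT09 (0.43 ± 0.12, adjusted p = 0.134). CT09 replicate 3 lay among the CT12 arrays, and Npm1 passed without it. Nop56, a core protein of box C/D ribonucleoproteins, read 0.43, 0.56 and 0.07 at CT12, against -0.05, -0.23 and -0.04 at CT09 (0.46 ± 0.13). The C/D core protein gene Nop58 differed by 0.59 ± 0.19 and the rRNA methyltransferase gene Nop2 by 0.42 ± 0.12, without overlap. Small nucleolar RNAs themselves, whose 54 genes are also measured on these arrays, had medians of 0.26, 0.05 and -0.02 at CT12, against 0.02, -0.10 and -0.05 at CT09. CT12 replicate 1 was the highest of the 6, and its part in the ribosome biogenesis values was not tested.

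Of 17 heat shock and cytosolic chaperone genes 0 passed in limma, with 8 higher and 0 lower at an unadjusted p under 0.05 (median 0.19). Chordc1, an HSP90 co-chaperone, read 0.29, 0.48 and 0.03 at CT12, against -0.53, -0.59 and -0.14 at CT09 (0.69 ± 0.15, adjusted p = 0.0815). The HSP70 partner Dnajb4 differed by 0.29 ± 0.10 and the mitochondrial chaperonin gene Hspd1 by 0.16 ± 0.06, both without overlap. Side by side, the median of this list was -0.06 from CT06 to CT09, 0.19 from CT09 to CT12 and 0.51 from CT12 to CT15. In the endoplasmic reticulum list 0 of 25 passed, with 0 higher and 1 lower at an unadjusted p under 0.05 (median 0.03, Calr with the smallest p at -0.21 ± 0.09). There the medians were -0.02, 0.03 and 0.27 over the same steps. Neighbouring steps share arrays, so these series are descriptions.

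Detoxification genes also lay higher. In xenobiotic metabolism 0 of 21 passed in limma, with 9 higher and 0 lower at an unadjusted p under 0.05 (median 0.15, and 0.23 without CT09 replicate 3). The sulfotransferase gene Sult1d1 read 0.26, 0.36 and 0.19 at CT12, against -0.31, -0.52 and -0.09 at CT09 (adjusted p = 0.139). Nr1i2, which encodes the xenobiotic receptor PXR, read 0.22, 0.33 and 0.46 at CT12, against -0.03, -0.04 and -0.06 at CT09 (0.38 ± 0.11). The glutathione transferase gene Gsta3 and the drug efflux pump gene Abcb1a passed without CT09 replicate 3. In heme metabolism 0 of 16 passed (2 higher and 0 lower at an unadjusted p under 0.05, median 0.09). Tfrc, the transferrin receptor gene, had the smallest p (0.75 ± 0.27, adjusted p = 0.228). Alas1, whose product starts the heme pathway, read 1.11, 1.22 and 0.64 at CT12, against 0.25, 0.14 and 0.08 at CT09 (0.83 ± 0.35, adjusted p = 0.282).

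Autophagy genes had a median of 0.05, and 0 of 20 passed (1 higher and 3 lower at an unadjusted p under 0.05). Ulk1, the initiating kinase, read 0.33, 0.14 and 0.21 at CT12, against 0.53, 0.78 and 0.55 at CT09 (-0.39 ± 0.09, adjusted p = 0.0926). Bnip3, a mitophagy receptor, was higher in every CT12 array (0.35 ± 0.12). In the cell cycle list 0 of 22 passed (4 higher and 1 lower at that level), and Ccne2, cyclin E2, had the smallest p (0.36 ± 0.08, adjusted p = 0.0906). In the respiratory chain 0 of 20 passed (4 higher, 0 lower), and in 7 of the 20 every CT12 array lay above every CT09 array, beside 7.39% of all genes. Cox5a, a subunit of complex IV, read 0.04, 0.06 and 0.06 at CT12, against -0.02, -0.21 and -0.17 at CT09.

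In each of the other lists limma called 0 genes. In the clock protein modifiers 30.8% of members lay higher in every CT12 array, in the ribosomal proteins 28.6% and in the proteasome subunits 23.8%, beside 7.39% of all genes. Acute phase and complement genes had 5% lower in every CT12 array with all arrays and 60% without CT09 replicate 3, beside 11.7% and 25.9% of all genes. The smallest p belonged to Prkaa1, a catalytic subunit gene of AMP-activated kinase, in the 13 clock protein modifiers (4 higher and 0 lower at an unadjusted p under 0.05). It was Rpl14 in 14 ribosomal proteins (3 and 0), Farsa in 17 aminoacyl-tRNA synthetases (1 and 0) and Psma6 in 21 proteasome subunits (1 and 0). For 14 polyamine, methionine and taurine genes it was the ornithine decarboxylase gene Odc1 (2 and 1), for 18 solute carriers Slc1a4 (1 and 1), and for 20 acute phase and complement genes Apcs (1 and 1). In the 10 reference genes (0 and 0) it was Actb, at -0.20, -0.16 and -0.23 at CT12, against 0.01, -0.01 and -0.22 at CT09. The cold-inducible genes Rbm3 (0.17 ± 0.15) and Cirbp (-0.03) had 0 of 2 at either level.

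Markers of other cell types were checked in 11 lists, with 89 members tested. All 8 tested hepatocyte markers lay in the upper brightness class (above 8 on the log2 scale, read from rounding steps), as did 2 of 9 macrophage markers and 0 of 10 neutrophil, 0 of 9 lymphocyte and 0 of 10 exocrine pancreas markers. Since the values are centred, no summed level of a list can be given. By limma 0 of the 89 passed. At an unadjusted p under 0.05, 4 of 10 neutrophil markers and 2 of 9 lymphocyte markers were lower at CT12, beside 8.31% of all genes, and 3 of 10 endothelial markers were higher. The neutrophil list's median was -0.05, -0.03 and 0.00 at CT12, against 0.07, 0.12 and 0.00 at CT09. Also lower were 2 of 10 stellate cell, 1 of 6 bile duct, 1 of 7 adipocyte and 1 of 8 muscle markers, while the hepatocyte, macrophage, exocrine pancreas and red blood cell lists had 0 at that level. Median differences were -0.12 for neutrophil, -0.11 for exocrine pancreas and bile duct, -0.10 for stellate cell and -0.09 for lymphocyte markers. They were -0.06 for muscle and adipocyte, -0.04 for red blood cell, 0.02 for hepatocyte, 0.03 for macrophage and 0.16 for endothelial markers. Over all genes 58.4% of differences were negative. Without CT09 replicate 3 the macrophage median was -0.26, compared with 0.03 with it, and 6 of the 9 markers lay lower in every CT12 array, beside 25.9% of all genes. Since all 9 were lowest on that array, leaving it out could only lower their differences. The same share was 62.5% for muscle, 50% for bile duct and red blood cell, 44.4% for lymphocyte and 40% for neutrophil and exocrine pancreas markers. It was 10% to 20% for endothelial, hepatocyte, adipocyte and stellate cell markers. The red blood cell list had only 2 tested members. In the other direction, 50% of endothelial markers lay higher in every CT12 array without CT09 replicate 3, beside 17.8% of all genes. That share was at most 20% in the other marker lists. The part of these cell types in the results was not tested.

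The change into dusk was then set against 3 other 3 h steps, each tested as a difference of steps by limma. Against the approach to dawn, CT21 to CT00, no array is shared, and 17 genes differed (0.0853%). Of these, 6 were also called in CT12 minus CT09. Hmgcs1 changed by -0.58 into dusk and by 0.50 into dawn, a difference of -1.08 ± 0.15 (adjusted p = 0.00796). Ppp1r10 changed by 0.84 into dusk and by -0.58 into dawn, a difference of 1.43 ± 0.21 with the same adjusted p. In these and in Arsg (-0.38 and 0.24) the values had opposite signs at the ends of the subjective day. The change into dawn alone was not called in Hmgcs1, Ppp1r10 or Arsg (adjusted p = 0.12, 0.168 and 0.183 by limma). Nampt (0.81 into dusk and -0.04 into dawn), Pim1 (-0.75 and 0.20) and Shld2 (0.53 and -0.14) also had opposite signs, with the larger value into dusk. Their changes into dawn were not called either, and the adjusted p for the difference lay between 0.0335 and 0.0387. Without CT21 replicate 2 the count of 17 fell to 4, and it was 6 to 8 without CT00 replicate 1, 2 or 3, CT09 replicate 1 or 2, CT12 replicate 2 or CT21 replicate 3. The approach to dawn itself had 1 called gene (0.00502%), compared with 21 (0.105%) for the approach to dusk, but at an unadjusted p under 0.05 the counts were 2901 and 3039. Between these steps 14 genes differed without CT09 replicate 3.

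Against the step before, CT06 to CT09, which shares the CT09 arrays, 1 gene differed (0.00502%), while 38 did without CT09 replicate 3 and 0 without CT09 replicate 2. Without CT06 replicate 1 or any 1 of the CT12 replicates the count was 2. That gene, Clpx, which encodes a mitochondrial unfoldase and was named after its values were seen, changed by -1.14 from CT06 to CT09 and by -0.07 from CT09 to CT12. Most of its fall lay before CT09. Over CT06 to CT09, 170 genes were called (0.853%), and 113 over CT12 to CT15 (0.567%). At an unadjusted p under 0.05 the counts were 2591 and 1666, with 3039 for CT09 to CT12.

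The step after, CT12 to CT15, shares the CT12 arrays and differed for 9 genes (0.0451%). Pfkfb3 changed by 0.79 from CT06 to CT09, by 0.98 from CT09 to CT12 and by -1.20 from CT12 to CT15, and the last steps differed by -2.17 ± 0.32 (adjusted p = 0.0103). Its peak at CT12 was narrow, with means of 0.58, 1.55 and 0.36 at CT09, CT12 and CT15. Coq8a (-0.30 from CT09 to CT12 and 0.45 from CT12 to CT15), Eps8l2 (-0.48 and 0.40) and Lasp1 (-0.34 and 0.33) went down and then up, with CT12 as their lowest point. Elovl3, not called in CT12 minus CT09, had values of -0.78 and then 1.14 (adjusted p = 0.0103 for the difference of 1.92 ± 0.29). Without CT12 replicate 1, 0 genes passed this test. Counts without another array ran from 4 (CT12 replicate 3) to 18 (CT12 replicate 2), with 7 without CT09 replicate 3, 5 without CT09 replicate 2 or CT15 replicate 3, 15 without CT15 replicate 1 and 14 without CT15 replicate 2.

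**Figure D5:**
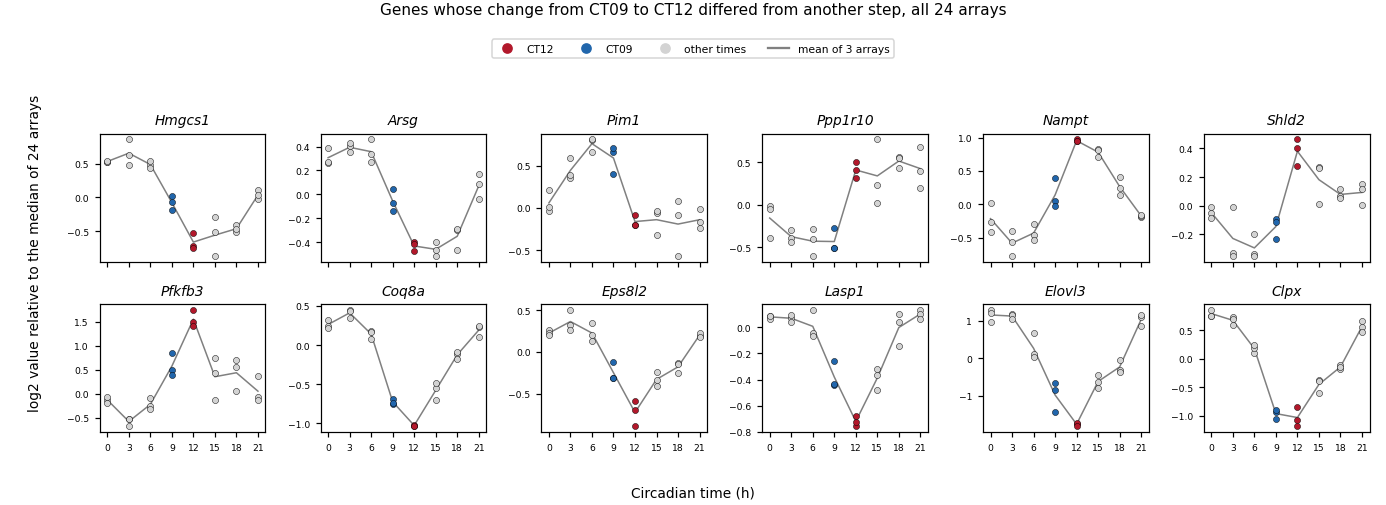
Log2 values, relative to the median of 24 arrays, of 12 genes against circadian time (h), chosen because their change from CT09 to CT12 differed from another step. Points are arrays, with CT12 and CT09 coloured, and lines join the means of 3 arrays. Pfkfb3 peaks at CT12 with a mean of 1.55, Coq8a, Eps8l2, Lasp1 and Elovl3 are lowest there, and Clpx had reached its low plateau at CT09.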

How the data were processed

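The authors deposited a single table of log2 values per probe set for 24 Mouse Gene 1.0 ST arrays, with 3 arrays for every 1 of the 8 times. RNA of each liver was extracted and hybridized on its own, per the labels' protocols. The sources used here do not state the normalization or the log base. Every probe set had a median of 0 (at most 5e-07) over the arrays, and the main test used no level or background filter. Rounding steps placed 4007 probe sets in an upper brightness class (above 8 on the log2 scale), which was fitted alone as an alternative. The number of arrays limits the precision. Of 28815 probe sets, 21780 had 1 gene symbol in the platform annotation, 1605 had several and 5430 were not listed. Probe sets of a gene were averaged. limma 3.58.1 in R 4.3.3 fitted 8 time means to 19935 genes (lmFit, eBayes), with Benjamini-Hochberg adjustment and a threshold of 0.05. The script was tested on simulated data. An exact permutation test of 3 against 3 arrays cannot go below 0.1 and was not used.

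Named were all genes that passed, topped up with those of smallest p to 15 in each direction, every clock gene, in each other list the called members or else the gene with the smallest p, and called genes whose steps differed. The members and lists were chosen with earlier results of these data known. Alternatives were the arrays in the fit, the replicate number as a block, array weights, robust moderation, quantile normalization, median centring, the probe set of a gene, the upper brightness class, a minimum of 1.5-fold, and each array left out in turn. Figures were drawn with matplotlib 3.10.9.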

Additional observations from a re-analysis of the deposited data

Results flagged for a closer look

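A difference between the effects of 2 steps, tested as such by limma with Benjamini-Hochberg adjustment, singled out 27 results. At an unadjusted p under 0.05, 1224 genes differed from the step into dawn, 2912 from the step before and 1456 from the step after. Genes that were not called in CT12 minus CT09 are named because of this test, after their values were seen. Dixon's test for a single outlying value was not applied to groups of 3 arrays.

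The step CT09 to CT12 minus the step CT21 to CT00 was positive for Ppp1r10 (1.43), Thrsp (1.17), Cabyr (0.93), Nampt (0.86), Etfbkmt (0.82), St3gal5 (0.79), Shld2 (0.67) and Asl (0.58). Thrsp, a regulator of fat synthesis, changed by 0.46 into dusk and by -0.71 into dawn. St3gal5, the gene of the sialyltransferase that makes ganglioside GM3, changed by 0.26 and -0.53. The same difference was negative for Hmgcs1 (-1.08), Krt18 (-0.95), Pim1 (-0.95), Spon2 (-0.92), Ppfibp1 (-0.69), Arsg (-0.61), Hsd3b7 (-0.56), Smagp (-0.55) and Cmpk2 (-0.52). Krt18, a keratin of epithelial cells including hepatocytes, changed by -0.39 into dusk and by 0.56 into dawn.

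Compared with the step CT06 to CT09, the step CT09 to CT12 differed for Clpx (1.07). The step CT12 to CT15 minus the step CT09 to CT12 was positive for Elovl3 (1.92), Cldn1 (1.10), Eps8l2 (0.87), Coq8a (0.75) and Lasp1 (0.67). Cldn1, the gene of the tight junction protein claudin 1, changed by -0.25 and then by 0.85. It was negative for Pfkfb3 (-2.17), Abhd17b (-1.39), Cabyr (-1.17) and Coq10b (-1.07). Abhd17b, a depalmitoylase gene, changed by 0.67 and then by -0.72, and Coq10b, which encodes a coenzyme Q binding protein, by 0.46 and then by -0.61.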

How the results depend on the processing

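As reported, 12 genes were higher and 9 lower, 17 differed from the step into dawn, 1 from the step before and 9 from the step after, and 3 list members were higher and 1 lower. With only the arrays of the times compared, 1 was higher, 1 lower, 0 differed from the step before and 0 from the step after, and 0 list members were higher. Same-numbered CT12 and CT09 deviations correlated at 0.068, -0.099 and -0.15, and 1 of 3 CT12 arrays correlated best with its own number. These correlations come from 3 pairs at 1 pair of times, so they cannot decide whether the replicate numbers pair the arrays. With the replicate block 28 were higher, 14 lower, 31 differed from dawn, 2 from the step before and 19 from the step after, with 3 list members lower. Array weights gave 233 higher, 157 lower, 137, 55 and 20 for the 3 step tests, and 17 list members higher and 10 lower. The weight of CT09 replicate 3 was 0.49, the lowest of the CT09 and CT12 arrays. Low weights were also given to CT15 replicate 2 (0.48) and CT18 replicates 2 and 3 (0.49 each), and the highest was 2.76 (CT21 replicate 2). Quantile normalization gave 2 higher, 2 lower, 3 against the step before, 0 against the step after, and 0 list members higher and 0 lower. Median centring gave 3 against the step before and 0 list members lower. The upper brightness class, with 2744 genes tested, gave 5 higher, 5 lower, 2 against the step before, and 1 list member higher and 2 lower. Of the 21 genes, 7 were tested in that class, and all 7 passed there. A minimum of 1.5-fold gave 5 higher, 1 lower and 0 list members lower. Without each replicate in turn, the higher genes ranged from 0 to 121, the lower from 0 to 69, dawn from 4 to 14, the step before from 0 to 38, the step after from 0 to 18, and list members from 0 to 11 (higher) and 0 to 6 (lower). All 21 genes kept their sign in every setting in which they were tested. Robust moderation changed none of these counts, and the widest probe set moved the higher genes to 13. The cause was not tested, except that fewer arrays or genes were used where stated and that a fold minimum can only remove calls.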
